A study of Homo sapiens with 12 samples.

Results

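The HOX genes are the homeobox transcription factor genes that lie in 4 clusters, A to D, and 39 of the 33093 genes kept from the count table have a symbol made of HOX, a cluster letter and a number: 11 HOXA, 10 HOXB, 9 HOXC and 9 HOXD genes. They were read in RNA-seq counts of 12 HEK293T samples, 3 in each of 4 groups. The groups were wild type (WT) cells and cells with the S80A mutation of NFKB1, each untreated or given TNFα at 10 ng/ml for 3 h. The S80A cells were made by CRISPR/Cas9 knock-in after a nocodazole block, followed by puromycin selection and isolation of single cell clones by serial dilution. The number of clones sequenced, and whether the WT cells went through the same steps, are not given in the sources used here, so the mutation and the history of the clones cannot be told apart. The count table holds no base calls, so the substitution itself could not be read from it. The 3 samples of a group are described as independently generated, and library totals ran from 15624878 to 20889577 counts.

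In cells, HOX proteins bind DNA together with PBX and MEIS partners and give positions along the body axis their identity. Within each cluster the genes stand in the order in which they are used from head to tail: low numbers act in the hindbrain and neck, high numbers in the lumbar region, the limbs and the genital tract. Genes with the same number in different clusters are called paralogues. In the embryonic kidney, from which the line was derived, the group 11 paralogues act with EYA1, SIX2 and PAX2 in the nephron progenitors. Polycomb complexes keep silent HOX genes closed, trithorax complexes keep active ones open, and retinoic acid and CDX proteins set the expressed range in the embryo.

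One library stood apart from the others. In a principal component analysis of all genes tested, the second component (19.0% of the variance) had a loading of 0.749 for replicate 2 of the untreated S80A cells and of −0.444 to 0.225 for the other 11 libraries. The counts of HOX genes called between the genotypes, and several HOX values, are therefore also given without it; results on other genes are given with all 12 libraries. The cell line was checked against 12 embryonic kidney markers: 10 had enough counts to be tested, PAX8 had 0 counts in all 12 samples, and the summed level of the list ran from 2831 to 3307 normalised counts.

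Of the 39 HOX genes, 35 had enough counts to be tested: all 11 HOXA genes, 9 of 10 HOXB, 8 of 9 HOXC and 7 of 9 HOXD. The 4 others are the first and next-to-last genes of their clusters. HOXB1, a hindbrain gene, had 0 counts in every sample, and HOXD1 had 1 to 13 raw counts. HOXC12 and HOXD12 had 0 to 4 and 0 to 7 raw counts, between well expressed neighbours of groups 11 and 13. In GRCh38 the HOXA genes span 107 kb on the minus strand of chromosome 7, the HOXB genes 200.2 kb on the minus strand of chromosome 17, the HOXC genes 117 kb on the plus strand of chromosome 12 and the HOXD genes 98.2 kb on the plus strand of chromosome 2.

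All 4 clusters were expressed, with the higher levels among genes of high number. Levels between genes are compared as normalised counts per kilobase of the canonical transcript, here the mean over the 12 samples ± SD. HOXB9, a gene of the thoracic and mammary region, was the highest at 1735 ± 219, a level above 93.6% of the 13615 tested genes with a known length. HOXD13, which patterns the digits and the genital tract, followed at 1109 ± 185. HOXA5, known for its part in lung and neck development, came next at 829 ± 114. HOXB9 was above HOXD13, and HOXD13 above HOXA5, in all 12 samples. In the HOXC cluster HOXC9 was highest at 384 ± 76.6, above HOXC4 (306 ± 35.0) in 11 of the 12 samples. The lowest tested genes were HOXA7 at 22.0 ± 4.27 and HOXA2 at 33.4 ± 8.47. The group 11 paralogues, the HOX genes of the nephron progenitors, stood at 561 ± 41.2 for HOXD11, 376 ± 43.0 for HOXA11 and 82.7 ± 10.3 for HOXC11.

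On the same scale the median over paralogue groups 1 to 3 was 55.4 (8 genes), over groups 4 to 8 it was 131 (15 genes), and over groups 9 to 13 it was 226 (16 genes). The order held within all 4 clusters: in HOXB (93.5, 228 and 934, the last from HOXB9 and HOXB13 alone, of which HOXB13 at 134 ± 20.3 lay below the middle groups' median), in HOXD (22.1, 91.8 and 425), in HOXC (131 and 152, with no gene of groups 1 to 3) and in HOXA (144 and 241 for the later groups). The ranges overlapped widely, since HOXA5 of the middle groups was exceeded only by HOXB9 and HOXD13. The tested HOX genes as a whole had a median of 142, beside 151 for all tested genes. By share of normalised counts, which longer genes raise, HOXB9 made up 60.8% of the HOXB reads and HOXD13 52.8% of the HOXD reads. HOXA5 made up 27% of HOXA and HOXC10 20.8% of HOXC, so the A and C clusters were spread over more genes. All HOX genes together took 0.0902 to 0.124% of the counts of a library.

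**Figure D1:**
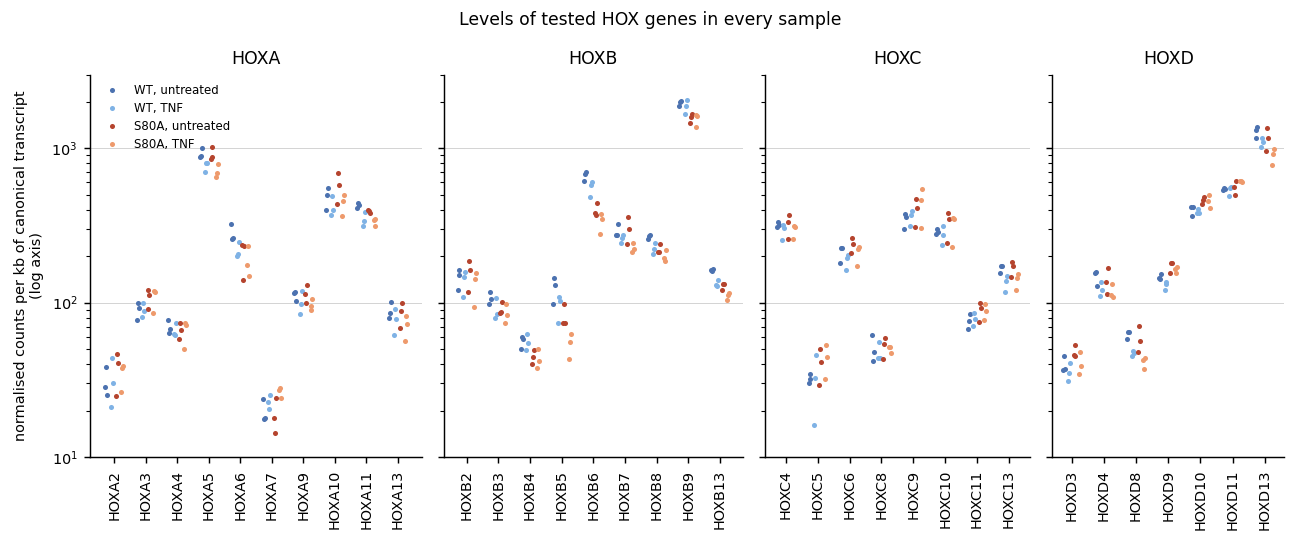
Levels of tested HOX genes in normalised counts per kilobase (log axis), with 1 panel per cluster, genes in order of paralogue number, 12 samples coloured by group and no error bars. HOXB9 and HOXD13 had the highest means at 1735 and 1109, and HOXA7 the lowest at 22.0.

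RefSeq promoters (GRCh38.p14), taken here as the 250 bases before the start, were at hand for 20 of the 39 HOX genes, with 27 entries in all; HOXC4 and HOXC5 share 1 region, which leaves 26 distinct ones. They were searched on both strands for the NF-κB consensus, the HOX-PBX motif TGATTNAT, the MEIS motif TGACAG and TATAAA. The NF-κB consensus was found in 1 of the 27 entries (5.21% of all 35116 promoters), the HOX-PBX motif in 2 (2.48%), the MEIS motif in 2 (13%) and TATAAA in 5 (10.7%). The median number of CG pairs was 19 in the HOX entries (19.5 over the distinct regions) and 11 in all. Of the genes called between the genotypes, only HOXD10 had an entry, and its promoter is shown because HOXD10 was higher in S80A cells. It held none of the 4 motifs. That of HOXD13, the most abundant HOXD gene, held TATAAA at bases −29 and −27, one on each strand and overlapping each other. That of HOXA2, a hindbrain gene, is shown as the only one with the NF-κB consensus, which it held at −218, beside the HOX-PBX motif at −114 and the MEIS motif at −47. The lines run 5′ to 3′ on the gene's strand and capitals mark the motif matches: HOXD10 at chr2:176116528-176116777 (+), HOXD13 at chr2:176092471-176092720 (+) and HOXA2 at chr7:27102684-27102933 (−).
HOXD10: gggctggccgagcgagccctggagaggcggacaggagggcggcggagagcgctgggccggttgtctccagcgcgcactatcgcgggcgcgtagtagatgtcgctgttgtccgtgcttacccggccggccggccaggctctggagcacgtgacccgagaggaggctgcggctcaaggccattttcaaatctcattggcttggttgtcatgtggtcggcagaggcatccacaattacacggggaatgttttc
HOXD13: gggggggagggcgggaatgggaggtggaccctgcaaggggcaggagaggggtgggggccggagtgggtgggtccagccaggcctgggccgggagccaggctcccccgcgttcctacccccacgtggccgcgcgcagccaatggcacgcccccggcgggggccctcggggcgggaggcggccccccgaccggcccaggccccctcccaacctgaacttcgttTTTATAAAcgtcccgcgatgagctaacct
HOXA2: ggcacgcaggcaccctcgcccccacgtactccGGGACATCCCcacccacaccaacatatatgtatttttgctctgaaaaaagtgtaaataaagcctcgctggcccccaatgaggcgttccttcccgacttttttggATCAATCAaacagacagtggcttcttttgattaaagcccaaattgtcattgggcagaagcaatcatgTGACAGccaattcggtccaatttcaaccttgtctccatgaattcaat

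Between the genotypes, the HOXB cluster differed most: 6 of its 9 tested genes were lower in S80A cells, and none was higher. Outside it, HOXD9 and HOXD10 were higher. Genotypes were compared within untreated cells, within TNFα-treated cells, and by the mean of these 2 differences, which uses all 12 samples and so shares its samples with both. By edgeR's quasi-likelihood test with p-values adjusted by the Benjamini-Hochberg procedure over all 14383 genes tested, 6 HOXB genes fell and 2 HOXD genes rose in the mean comparison at a threshold of 0.05. This fit holds no block for replicate number; a fit with that block called further HOX genes in each genotype comparison. Of all genes tested, 9.47% were lower and 7.21% higher. In untreated cells 2 HOX genes fell (4.21% of all genes lower, 2.05% higher), and in TNFα-treated cells 2 fell (4.44% lower, 2.92% higher). All 4 of these calls were HOXB genes. Without replicate 2 of the untreated S80A cells the counts over all tested HOX genes were 9 in the mean comparison, as with it, 3 in untreated and 3 in TNFα-treated cells. The untreated count was 1 without replicate 2 or 3 of untreated WT or replicate 1 or 3 of untreated S80A cells, and 4 by DESeq2, all in HOXB. The treated count was 1 without replicate 2 of treated WT or replicate 1 or 2 of treated S80A cells. In the bulk RNA measured here, fewer cells that express a gene and less of its RNA in each cell cannot be told apart.

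HOXB6, a gene of the middle of the cluster, had the largest fall in the mean comparison, and HOXB9, the most abundant HOX gene, fell as well. The normalised counts of HOXB6 were 1028, 1149 and 1171 in untreated WT cells, 641, 622 and 735 in untreated S80A cells, 809, 974 and 1013 in treated WT cells and 467, 624 and 581 in treated S80A cells. Every S80A sample was below every WT sample, treated or not. The log2 fold change by edgeR's quasi-likelihood test was −0.74 (SE 0.118, adjusted p = 0.00191) in untreated cells, −0.75 (SE 0.119, adjusted p = 0.00214) with TNFα and −0.74 (SE 0.0839, adjusted p = 4.05e-05) in the mean comparison. HOXB9 had 4839, 5173 and 5191 in untreated WT cells, 3791, 4139.9 and 4293 in untreated S80A cells, 4330.3, 4825 and 5292 in treated WT cells and 3559, 4234 and 4183 in treated S80A cells. All 6 S80A samples were again below all 6 WT samples, by a narrow margin between the highest S80A and the lowest WT value. The mean difference was −0.29 (SE 0.0639, adjusted p = 0.00582) by the same test, edgeR's quasi-likelihood test, with −0.31 untreated and −0.27 with TNFα, neither of which passed it alone in the fit without the block.

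HOXB5 and HOXB13 fell too. HOXB5 lies beside HOXB6, and HOXB13, a gene of the prostate and tail end of the body, stands at the far end of the cluster. The normalised counts of HOXB5 were 183, 270.2 and 240.3 in untreated WT cells, 137, 181 and 138 in untreated S80A cells, 138, 203 and 191 in treated WT cells and 80.5, 104 and 116 in treated S80A cells. Within each treatment all S80A samples were below all WT samples, but untreated S80A replicate 2 and the TNFα-treated WT samples overlapped. The fall in HOXB5 was −0.83 (SE 0.198, adjusted p = 0.0213) with TNFα and −0.72 (SE 0.136, adjusted p = 0.0022) in the mean comparison by edgeR's quasi-likelihood test. It was −0.61 in untreated cells, where it did not pass in the fit without the block (adjusted p = 0.0683, edgeR's quasi-likelihood test), and −0.75 without untreated S80A replicate 2, where it did (adjusted p = 0.0293). HOXB13 had 494, 489 and 501 in untreated WT cells, 368, 401 and 398 in untreated S80A cells, 395, 390.1 and 429 in treated WT cells and 316, 339.8 and 351 in treated S80A cells. The groups were tight and did not overlap within either treatment. Its log2 fold change was −0.35 (SE 0.0854, adjusted p = 0.0264) untreated and −0.31 (SE 0.061, adjusted p = 0.00298) in the mean comparison by edgeR's quasi-likelihood test. Leaving out 1 library ended the untreated call of HOXB13 for replicates 1 and 3 of untreated S80A cells and for any of the 3 untreated WT libraries. That call held in only 5 of 9 alternative fits with no untreated library left out. Among the fits that ended it were those without the filter on low counts, with the 6 untreated samples alone and after GC correction. The TNFα-treated call of HOXB5 ended without replicate 1 or 2 of treated S80A cells or replicate 2 of treated WT cells.

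The differences in HOXB8 and HOXB4 were smaller. HOXB8, used in myeloid progenitors, had 561, 589 and 598 in untreated WT cells, 464, 460.1 and 519 in untreated S80A cells, 452, 484 and 532 in treated WT cells and 421, 405 and 479.7 in treated S80A cells. Untreated S80A samples were all below untreated WT samples, while the treated groups overlapped. HOXB4, used in blood stem cells, had 100.4, 119 and 117 in untreated WT cells, 80.6, 88.9 and 98.1 in untreated S80A cells, 98.6, 125 and 109.6 in treated WT cells and 75.0, 100.3 and 83.7 in treated S80A cells. It showed the same picture at a low level, without overlap in untreated cells and with overlap under TNFα. In the mean comparison HOXB8 fell by 0.22 (SE 0.0682, adjusted p = 0.0377) and HOXB4 by 0.35 (SE 0.108, adjusted p = 0.0378) on the log2 scale by edgeR's quasi-likelihood test. These were the calls nearest the threshold: of the 12 fits that left out 1 library, HOXB8 kept its call in 3 (without replicate 3 of either S80A group or replicate 1 of treated WT cells) and HOXB4 in 5 (without replicate 2 of either S80A group, replicate 3 of untreated S80A cells or replicate 1 of either WT group). HOXB8 also lost it with scaling by total counts or without the filter, and HOXB4 with GC correction or by DESeq2. Without untreated S80A replicate 2, HOXB8 had an adjusted p of 0.052 and HOXB4 of 0.0445 by edgeR's quasi-likelihood test. The other 3 tested genes of the cluster, HOXB2, HOXB3 and HOXB7, did not pass, with mean log2 fold changes of 0.01, −0.17 and −0.08. HOXB2 is the tested gene nearest to HOXB1 at the head end. Summed over the cluster, HOXB had 8598 ± 426 normalised counts (mean ± SD of 3) in untreated WT and 6821 ± 476 in untreated S80A cells. With TNFα the sums were 7814 ± 753 and 6314 ± 611.

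**Figure D2:**
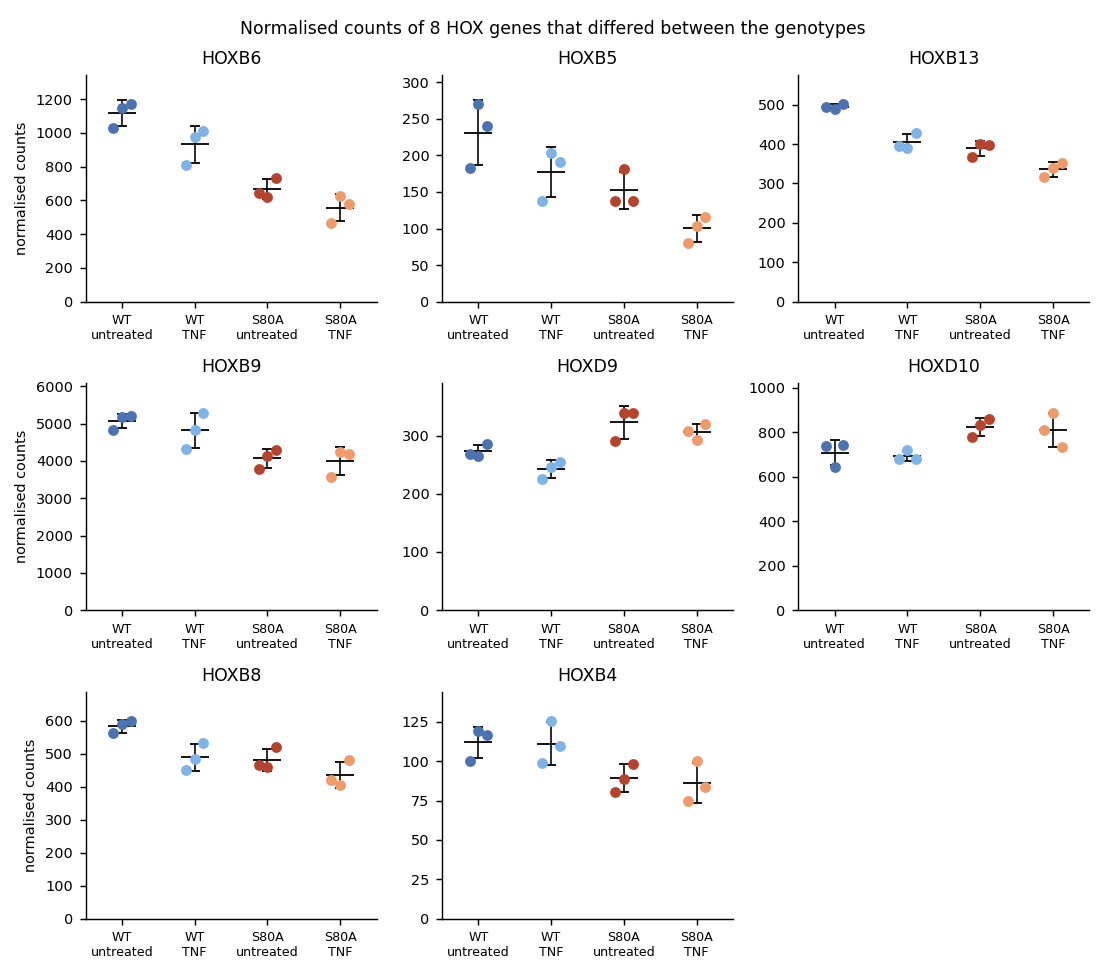
Normalised counts of 8 HOX genes that differed between the genotypes, as single samples with the mean ± SD of 3 for each of the 4 groups. All S80A values lie below all WT values for HOXB6 and HOXB9, and above them for HOXD9.

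In the other clusters few genes differed. HOXA5, the most abundant HOXA gene, had 1459, 1494 and 1668 in untreated WT cells, 1411, 1701 and 1458 in untreated S80A cells, 1177, 1346 and 1337 in treated WT cells and 1092, 1148 and 1324 in treated S80A cells. The genotypes overlapped in both treatments, and its mean difference was −0.07 (SE 0.0705). HOXA6, at −0.34, and HOXA3, at 0.25, did not pass in the mean comparison of the fit without the block either, and the HOXA median was −0.05. That median changed sign with single libraries, from −0.09 without replicate 2 of untreated S80A cells to 0.02 without replicate 1 of treated S80A cells.

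In the HOXD cluster HOXD9 and HOXD10 rose, both genes of the lumbar region and the limbs. HOXD9 had 268, 266 and 286 in untreated WT cells, 290.1, 339 and 339 in untreated S80A cells, 225, 247 and 254 in treated WT cells and 308, 293 and 319.8 in treated S80A cells. All 6 S80A samples were above all 6 WT samples. HOXD10, whose promoter is printed above, had 739, 645 and 740.5 in untreated WT cells, 778, 830.1 and 859 in untreated S80A cells, 679, 719 and 679 in treated WT cells and 808, 887 and 734 in treated S80A cells. Its groups did not overlap within either treatment, although the lowest treated S80A value was under the highest untreated WT values. The mean log2 fold change was 0.29 (SE 0.0706, adjusted p = 0.0111) for HOXD9 and 0.22 (SE 0.064, adjusted p = 0.0284) for HOXD10 by edgeR's quasi-likelihood test. Without untreated S80A replicate 2, HOXD9 also passed in TNFα-treated cells (0.34, adjusted p = 0.0402, edgeR's quasi-likelihood test). With all libraries it did not pass there in the fit without the block. HOXD9 passed there in 4 of 9 alternative fits and in 3 of the 12 fits without 1 library. The call of HOXD10 held in 7 of the 12 fits without 1 library. It ended without the filter on low counts and without replicate 1 or 2 of treated S80A, replicate 3 of untreated S80A, replicate 1 of treated WT or replicate 2 of untreated WT cells.

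HOXD13, at the opposite end of the cluster from HOXD1, lay on the other side of 0. It had 2831, 3177 and 3337 in untreated WT cells, 2319.5, 3248 and 2821 in untreated S80A cells, 2443, 2825 and 2668 in treated WT cells and 1867, 2220.3 and 2389 in treated S80A cells. The treated S80A samples were all below the treated WT samples, and the untreated groups overlapped, with S80A replicate 2 among the WT values. The mean difference was −0.23 (SE 0.0849, adjusted p = 0.0882) by edgeR's quasi-likelihood test, which did not pass in the fit without the block. Without untreated S80A replicate 2 it was −0.28 and passed (adjusted p = 0.0141, edgeR's quasi-likelihood test). The HOXD median was 0.11 in the mean comparison, 0.03 untreated and 0.18 with TNFα. The untreated value was −0.04 without replicate 3 and 0.11 without replicate 2 of untreated S80A cells, and the treated value was 0.04 without replicate 2 of treated S80A cells and 0.09 without replicate 1 of treated WT cells. After GC correction both were 0.09, and the mean value was 0.07 without replicate 3 of untreated S80A cells.

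The HOXC genes lay slightly above 0, and none was called in the fit without the block. HOXC9, the highest of them, had 439, 555 and 532 in untreated WT cells, 452, 687 and 605 in untreated S80A cells, 461, 547 and 578 in treated WT cells and 449, 679.6 and 802 in treated S80A cells. The genotypes overlapped in both treatments, and S80A samples spread more widely than WT samples. Its mean difference was 0.23 (SE 0.134, adjusted p = 0.274) by edgeR's quasi-likelihood test. All 8 tested HOXC genes had a mean log2 fold change above 0, from 0.01 (HOXC4) to 0.37 (HOXC5), with a median of 0.17. By edgeR's test 0 of 8 passed, with 0 at an unadjusted p under 0.05, and DESeq2 called 0 as well. Without untreated S80A replicate 2, 6 of the 8 were above 0, the mean median was 0.12, and the median in untreated cells was 0.05 instead of 0.17. Without untreated S80A replicate 1 that untreated median was 0.29. With TNFα the median was 0.16, with 0.08 without replicate 2 or 3 and 0.27 without replicate 1 of treated S80A cells, and 0.07 without replicate 1 of treated WT cells. For all genes tested, the median of the mean comparison was 0.00.

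**Figure D3:**
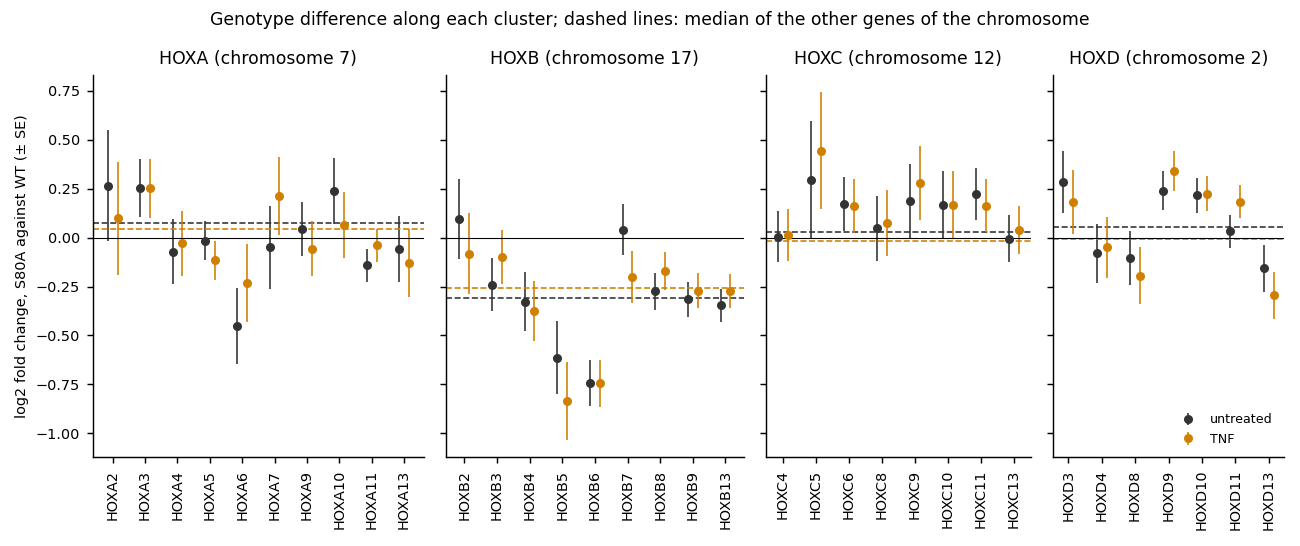
Log2 fold change of S80A against WT (± SE) for tested HOX genes along each cluster, in untreated and in TNFα-treated cells, with the median of the other tested genes on the same chromosome as a dashed line. The HOXB median was −0.31 untreated and −0.27 with TNFα, beside −0.31 and −0.26 for chromosome 17.

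The HOXB difference had the size of that of its whole chromosome. The 799 other tested genes on chromosome 17 had a median log2 fold change of −0.28 in the mean comparison, beside −0.29 for the 9 HOXB genes. Of these 799, 460 (57.6%) fell by edgeR's quasi-likelihood test and 90.5% were below 0, the lowest median of 23 chromosomes. For HOXB, 66.7% fell and 88.9% were below 0. The chromosome 17 median was −0.31 in untreated and −0.26 in TNFα-treated cells, with 258 and 199 genes lower, and HOXB had −0.31 and −0.27. The chromosomes of the other clusters had medians near 0 in the mean comparison: 0.06 on chromosome 7 (HOXA −0.05), 0.01 on chromosome 12 (HOXC 0.17) and 0.02 on chromosome 2 (HOXD 0.11). Chromosome 10, which holds no HOX cluster, had −0.20. DNA copy number was not measured here, and the clone, the mutation and the chromosome cannot be told apart.

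Single HOXB genes nevertheless took different places among the genes of the chromosome. HOXB6 and HOXB5 were near its lower end, each with 4.51% of the 799 genes lower. HOXB4, HOXB13 and HOXB9 were near its middle, with 32.8%, 43.1% and 47.1% of the genes lower. HOXB8 had 65.5% lower, HOXB3 76.0%, HOXB7 86.0% and HOXB2 90.7%. The HOXB cluster was thus spread from near the lower to near the upper end of the chromosome's differences, while its median lay beside the chromosome's. Along the chromosome, the 9 bins of 10 Mb counted from the centre of HOXB with at least 20 genes had medians of −0.38 to −0.22, so the shift was not confined to the region of the cluster. Within 5 Mb on each side of HOXB, 110 other genes had a median of −0.29 and 66 fell. Windows of 1 and 10 Mb gave −0.30 and −0.30. The same 5 Mb windows had medians of 0.07 around HOXA (42 genes), −0.01 around HOXC (159 genes) and 0.03 around HOXD (47 genes).

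The nearest tested protein-coding neighbours gave the same picture for HOXB. SNX11, which codes for a sorting nexin, had 679, 736 and 739 normalised counts in untreated WT, 487, 579 and 469.7 in untreated S80A, 682, 669 and 763 in treated WT and 576, 572 and 594 in treated S80A cells. All S80A samples were below all WT samples. It fell by 0.39 and CALCOCO2, an autophagy receptor gene on the other side, by 0.25 on the log2 scale (adjusted p = 0.00121 and 0.00569, edgeR's quasi-likelihood test). Beside HOXA, SKAP2 rose by 0.25 (adjusted p = 0.036, edgeR's quasi-likelihood test) and HIBADH had 0.19 without passing. The neighbours of HOXC and HOXD did not pass, with 0.03 for CALCOCO1, 0.07 for SMUG1, 0.02 for KIAA1715 and 0.13 for MTX2.

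**Figure D4:**
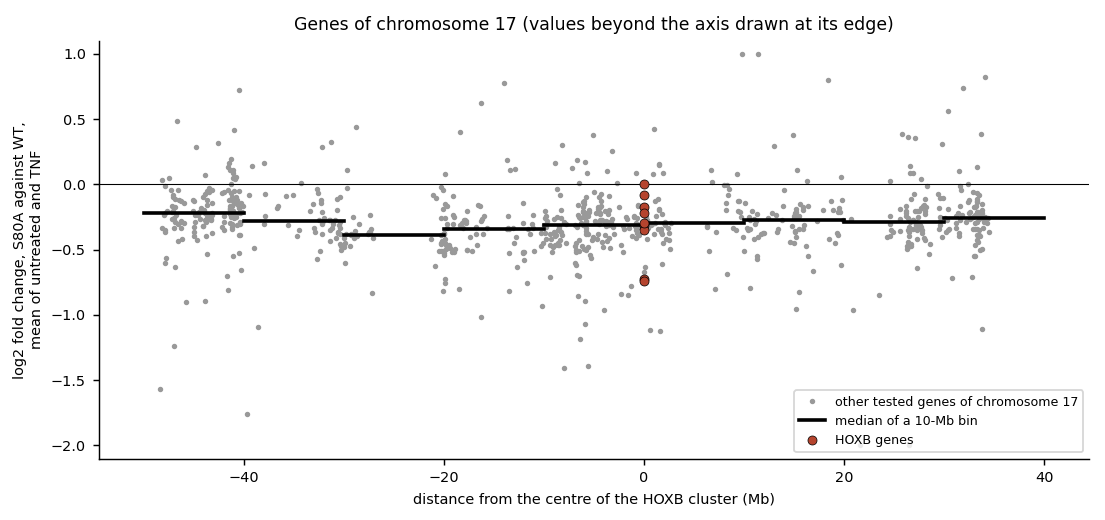
Mean log2 fold change of S80A against WT for the tested genes of chromosome 17 by distance in Mb from the centre of the HOXB cluster, with medians of 10 Mb bins as lines, HOXB genes in red and values beyond the axis drawn at its edge. The medians of the 9 bins ran from −0.38 to −0.22.

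Other RNAs of the clusters, most from the strand opposite the HOX genes, were read alongside them. Of 33 listed cluster RNAs, 24 were in the count table and 14 were tested, HOXA11-AS being the most abundant. By edgeR's quasi-likelihood test in the mean comparison 1 fell and 2 rose, beside 9.47% lower and 7.21% higher among all genes tested. HOXA-AS3, transcribed against HOXA6 and HOXA7, had 42.4, 41.2 and 38.2 in untreated WT cells, 82.5, 75.7 and 94.6 in untreated S80A cells, 40.5, 41.5 and 43.1 in treated WT cells and 78.7, 88.5 and 71.9 in treated S80A cells. All S80A values were well above all WT values, and the log2 fold change was 0.99 (SE 0.11, adjusted p = 3.39e-05) by edgeR's quasi-likelihood test. HOXB-AS3, which runs against HOXB5 and HOXB6, had 158, 147 and 158 in untreated WT cells, 89.0, 84.1 and 115 in untreated S80A cells, 125, 129 and 173 in treated WT cells and 84.1, 82.6 and 102 in treated S80A cells. All S80A values were below all WT values, with a log2 fold change of −0.67 (SE 0.116, adjusted p = 0.00122) by edgeR's quasi-likelihood test. HOXC13-AS rose at a low level, by 0.57 (SE 0.164, adjusted p = 0.0268) in the same test of edgeR, and it alone of the 3 did not pass by DESeq2 (adjusted p = 0.0508). HOXA3, HOXA4, HOXA6 and HOXA7 share exonic bases with HOXA-AS3 on the opposite strand. They had 0.25, −0.05, −0.34 and 0.08 and did not pass in the fit without the block. With the block HOXA3 passed (adjusted p = 0.0138, edgeR's quasi-likelihood test). HOXA5, at −0.07, did not pass either. HOXB3, HOXB5 and HOXB6 share 77, 73 and 425 exonic bases with HOXB-AS3 on the opposite strand. HOXB5 and HOXB6 fell as given above, while HOXB3, at −0.17, did not pass.

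Several of these transcripts share exonic bases, which limits what a count per gene can say. HOXB6 shares 433 bases (16.6% of its exonic length) with HOXB3 on the same strand and 425 bases (16.3%) with HOXB-AS3 on the opposite strand. HOXA7 shares 62.5% and HOXA6 39.3% of its exonic bases with HOXA-AS3. HOXC5, which had the highest HOXC value (0.37) at 25 to 76 raw counts, shares 67.3% with a non-coding RNA gene on the same strand. It also shares 37.9% with a protein-coding gene on that strand. HOXD10 and HOXD11 share 452 bases on the same strand, 18.2% and 21.4% of their lengths, and HOXC4 and HOXC6 share 484. The kit made stranded libraries, but the strand option used in counting is not given in the sources used here. How reads over shared bases were assigned was not tested.

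Partners and regulators of the HOX genes were read from lists in the mean comparison, in which 9.47% of all genes tested were lower and 7.21% higher. Of the 9 TALE cofactors, the PBX, MEIS and PKNOX proteins that bind DNA with HOX proteins, all were tested and only MEIS3 passed. It had 139.8, 140.5 and 122 in untreated WT cells, 242, 150.2 and 186 in untreated S80A cells, 114, 112 and 129 in treated WT cells and 216, 182 and 179 in treated S80A cells. All S80A values were above all WT values, and MEIS3 rose by 0.62 (SE 0.114, adjusted p = 0.00195) by edgeR's quasi-likelihood test. Of 30 tested Polycomb genes, 5 fell and 1 rose, with RBBP7 the most abundant. All 5 that fell lie on chromosome 17, like HOXB, where 6 of the 30 were tested. Among them were SUZ12 (−0.46), a core subunit of the complex that methylates H3K27, and CBX2 (−0.34), a reader of that mark in the other complex. CBX7, a further reader, on chromosome 22, rose by 0.54 (adjusted p = 0.000472, edgeR's quasi-likelihood test). Of 20 tested trithorax, demethylase and insulator genes, STAG1 (−0.64) and SMC3 (−0.24) of cohesin fell and MAZ (0.29), also the most abundant, rose, counts near the shares of all genes.

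Of 23 genes of the retinoic acid, CDX and other inputs to HOX clusters, 15 were tested, with ALDH1A2, a retinoic acid synthase gene, the most abundant. By edgeR's quasi-likelihood test 5 fell and 2 rose in the mean comparison, beside 9.47% lower and 7.21% higher among all genes tested. The receptor gene RARG fell by 0.41 and the synthase gene ALDH1A3 by 0.93, and the receptor gene RXRA rose by 0.32 (adjusted p = 0.00143, 0.00154 and 0.00146, edgeR's quasi-likelihood test). RARA, on chromosome 17 like HOXB, fell by 0.36. Of the CDX genes, which code for homeobox activators of HOX genes, CDX1 and CDX4 had 0 counts in all samples, while CDX2 was expressed. CDX2 had 742, 683 and 715 in untreated WT cells, 864, 824 and 829 in untreated S80A cells, 589, 589 and 640.1 in treated WT cells and 699, 714 and 738 in treated S80A cells. The S80A samples were above the WT samples within each treatment, and CDX2 rose by 0.24 (SE 0.0534, adjusted p = 0.00677) by edgeR's quasi-likelihood test. The part of any of these genes in the HOX differences was not tested.

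In the fit without the block no HOX gene passed the test for TNFα in either genotype, while most HOX genes had a log2 fold change slightly below 0 after 3 h of treatment. The fit with the block for replicate number called HOXD13 and HOXB5 in S80A cells (adjusted p = 0.0343 and 0.0367, edgeR's quasi-likelihood test). By edgeR's quasi-likelihood test without the block, 0 of 35 tested HOX genes passed in WT cells, where 0.688% of all genes tested did (99 genes). In S80A cells 0 of 35 passed, where 1.26% of all genes did (181 genes). DESeq2 also called 0 in both. At an unadjusted p under 0.05, 7 HOX genes were lower and 0 higher in WT cells, and 10 were lower and 1 higher in S80A cells. Of all genes, 2.81% and 5.14% were lower at that level. The 2 comparisons share no sample. In each genotype 31 of 35 HOX genes had a log2 fold change below 0, beside 50.0% of all genes in WT and 50.5% in S80A cells. The median was −0.16 in WT and −0.15 in S80A cells, and 29 genes were below 0 in both. HOXA7 and HOXC9 were the genes above 0 in both, HOXA7 with 0.21 and 0.47. The cluster medians in WT cells were −0.16 for HOXA, −0.24 for HOXB, −0.07 for HOXC and −0.17 for HOXD. In S80A cells they were −0.15, −0.22, −0.05 and −0.25.

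The lowest adjusted p in WT cells was that of HOXA11, a kidney and limb gene picked for it after its values were seen. It had 1100.5, 1187 and 1151 normalised counts in untreated and 839, 908 and 1026 in treated WT cells, and 1064, 1043 and 1014 in untreated and 921, 933 and 842 in treated S80A cells. Treated samples were below untreated samples in both genotypes. The log2 fold change was −0.31 (SE 0.0848, adjusted p = 0.196) in WT and −0.21 (SE 0.0851, adjusted p = 0.427) in S80A cells by edgeR's quasi-likelihood test. In S80A cells the lowest adjusted p was that of HOXA5, with −0.36 (SE 0.0999, adjusted p = 0.148) by edgeR's quasi-likelihood test and −0.26 in WT cells. All of its treated S80A values were below its untreated ones, as the values above show. HOXD8 had −0.41 and −0.49, and HOXB5 −0.38 and −0.60, in WT and S80A cells.

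The size of the lower HOX values under TNFα varied with single libraries. Without replicate 1 of treated WT cells, 25 of 35 HOX genes were below 0 in WT cells with a median of −0.08. Without replicate 1 of treated S80A cells, 24 were below 0 in S80A cells with a median of −0.07. Without untreated S80A replicate 2, 26 were below 0 with a median of −0.12, and without untreated S80A replicates 3 and 1, each alone, the medians were −0.08 and −0.23. HOXA11 passed in WT cells without replicate 3 of treated WT cells (−0.40, adjusted p = 0.0402), and HOXB7, HOXD13 and HOXD8 passed in S80A cells without replicate 1 of untreated S80A cells, by edgeR's quasi-likelihood test. Replicate 1 had the lowest summed HOX level in each of the 4 groups. The sums over all HOX genes were 21049, 22831 and 23347 normalised counts in untreated WT and 18026, 20876 and 21199.6 in treated WT cells. They were 18485, 22156 and 21639.7 in untreated and 16455, 19495 and 19566 in treated S80A cells. The untreated and treated sums overlapped in both genotypes, and each treated sum was below the untreated sum of the same replicate number.

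Base composition was compared as well, and the tested HOX transcripts had a median GC content of 54.7% (43.7 to 62.6%). Among all genes with a known composition, those under 45% GC had a median TNFα response of 0.07 and those of 55% and over −0.06 in WT cells. In S80A cells the same classes had −0.09 and 0.07, the opposite order. With each library corrected for GC content, 27 of 35 HOX genes were below 0 in WT cells with a median of −0.14, and 31 of 35 in S80A cells with a median of −0.21. By edgeR's quasi-likelihood test on the corrected libraries 0 HOX genes passed in either genotype. The classes under 45% and of 55% and over also differed between S80A and WT. They had 0.08 and −0.05 in untreated cells, −0.09 and 0.09 with TNFα, and −0.01 and 0.02 in the mean comparison. For the difference between the genotypes in the TNFα response they had −0.16 and 0.14.

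The response of the HOX genes to TNFα did not pass a test of difference between WT and S80A cells. In that test, the interaction, 0 of 35 HOX genes passed by edgeR's quasi-likelihood test, as did 0.0% of all genes, and DESeq2 called 0 HOX genes. At an unadjusted p under 0.05 the HOX count was 0, and the lowest adjusted p was 0.911. The interaction values of the HOX genes ran from −0.24 (HOXB7) to 0.26 (HOXA7), with a median of 0.01 and 17 of 35 below 0. After GC correction the median was −0.08 with 27 of 35 below 0, and over the alternatives it ran from −0.09 (without replicate 1 of untreated S80A cells) to 0.09 (without replicate 1 of treated S80A cells).

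**Figure D5:**
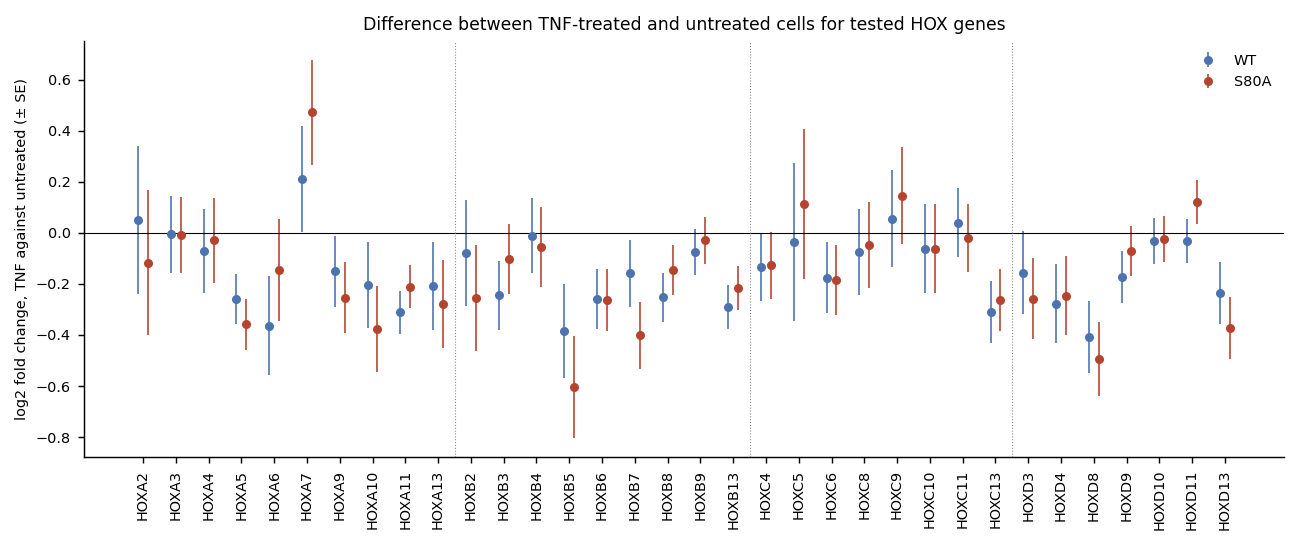
Log2 fold change of TNFα-treated against untreated cells (± SE) for tested HOX genes in WT and in S80A cells. In each genotype 31 of all 35 had a value below 0, with medians of −0.16 and −0.15, and none passed the test in the fit without the block.

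Markers of cell types differed between the genotypes as well, beside 9.47% lower and 7.21% higher among all genes tested. Of 10 tested embryonic kidney markers, 3 fell and 1 rose in the mean comparison by edgeR's quasi-likelihood test: WT1 (−0.56), LHX1 (−0.76, on chromosome 17 like HOXB) and GATA3 (−0.54) fell, and EYA1 (0.27), a partner of the group 11 HOX proteins, rose. Of 9 neuronal markers 6 were tested, 1 fell and 2 rose, with a median log2 fold change of 0.26. NEFM, a neurofilament gene, had 1975, 1709 and 1829.6 in untreated WT cells, 2.78, 7.21 and 3.47 in untreated S80A cells, 2247, 1900.2 and 2099.5 in treated WT cells and 2.71, 3.54 and 5.37 in treated S80A cells. It was high in every WT sample and near 0 in every S80A sample, a log2 fold change of −8.88 (adjusted p = 3.48e-15, edgeR's quasi-likelihood test). INA, also a neurofilament gene, had the highest mean of the list over all 12 samples, though it was below NEFM in every WT sample, and it rose. It had 969, 882 and 901 in untreated WT cells, 1574, 1267 and 1134 in untreated S80A cells, 1121, 973 and 868 in treated WT cells and 1524, 1113 and 1087 in treated S80A cells. Its genotypes overlapped only under TNFα, and the log2 fold change was 0.43 (SE 0.102, adjusted p = 0.00921) by edgeR's quasi-likelihood test. TUBB3, a neuronal tubulin gene, rose by 0.34 (adjusted p = 0.0488, edgeR's quasi-likelihood test). The summed neuronal list, lower in S80A cells through NEFM, ran from 3616 to 4538 normalised counts in WT and from 2141 to 3113 in S80A cells. Of 8 fibroblast markers 3 were tested and COL1A1, on chromosome 17 and the most abundant, fell by 1.12. That list summed to 285 to 337 in WT and 141 to 178 in S80A cells. Of 8 immune markers 2 were tested and 0 passed edgeR's test, with 0 at an unadjusted p under 0.05 and 0 by DESeq2. CD68 was the most abundant, PTPRC and CD3E had 0 counts in all samples, and the sums ran from 64.2 to 99.4. The part of these markers in the HOX differences was not tested.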

How the data were processed

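The authors aligned single-end reads of 75 bases to GRCh38 with HISAT, and the deposited table holds raw counts per gene symbol from HTSeq-count. Their versions and the strand option are not given in the sources used here. The authors' own fold changes and p-values were not used. Of 33121 genes, 28 with symbols turned into dates were left out. Positions and canonical transcript lengths came from GENCODE release 44, in which 22098 symbols matched a current name, 1589 an older one and 9406 none. Library totals were 15624878 to 20889577, so a gene with few reads carries a large counting error.

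Genes passing filterByExpr (minimum count 10) were scaled by TMM and fitted in edgeR 4.0.16 (R 4.3.3) by quasi-likelihood with 4 group means. P-values were adjusted by Benjamini-Hochberg over all 14383 genes, with a threshold of 0.05. The standard error is the log2 fold change divided by the root of the F statistic. Normalised counts are counts divided by each library's TMM-scaled size, itself taken relative to the mean size. Pairs of replicates differed by a chi-square of 2.90 to 38.2 per gene, more than counting error, so samples were the units. The steps were tested on simulated data.

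Alternatives were the test of DESeq2 1.42.0, its size factors, scaling by total counts, no filter, a floor of 10 counts in all samples, a block for replicate number, a fit of the 6 samples of a comparison alone, a limit of 1 on the size of the log2 fold change, omission of each library in turn, and windows of 1 and 10 Mb. Correction for GC content was added after the data were seen. Tables, motif searches and figures used Python 3.11.15, numpy 2.4.6, pandas 2.3.3, scipy 1.17.1 and matplotlib 3.10.9. Sample values are given for HOX genes past the threshold in any comparison and for the highest per length in each cluster, and for the other lists the genes past it with the lowest adjusted p and the most abundant gene are named where reported. Some genes of the set and the lists are counted in totals but not reported here. Members and lists were chosen with earlier results of these data known. The paper's other assays were not analysed here.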

Additional observations from a re-analysis of the deposited data

How the results depend on the processing

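Calls and adjusted p-values are from edgeR's quasi-likelihood test unless DESeq2 is named. The count of HOX genes called in untreated cells was 2 in the fit reported, 6 with the replicate block, 1 when its 6 samples were fitted alone, 4 by DESeq2, 1 with GC correction, 5 with GC correction and block, 0 when a log2 fold change of 1 or more in size was also required, and 1 to 3 with a library left out (1 without untreated WT replicate 2 or 3 or untreated S80A replicate 1 or 3). In TNFα-treated cells it was 2, then 6 with the block, 6 with GC correction and block, and 0 with the fold limit. Among alternatives that left out no library of this comparison and set no fold limit, HOXB5 and HOXB6 were called in 9 of 9 and HOXD9 in 4 of 9. The count was 1 to 3 with a library left out (1 without treated WT replicate 2 or treated S80A replicate 1 or 2). In the mean comparison it was 9, then 11 with the block (HOXD13 and HOXA3 added, adjusted p = 0.0104 and 0.0138), 14 with GC correction and block (2 of them HOXC genes), 0 with the fold limit and 6 to 9 with a library left out. For TNFα in WT cells it was 0, and 1 without treated WT replicate 3. In S80A cells it was 0, then 2 with the block (HOXD13 and HOXB5, adjusted p = 0.0343 and 0.0367), 4 with GC correction and block, and 3 without untreated S80A replicate 1. The HOXD median in TNFα-treated cells was 0.18, and 0.0449 (without treated S80A replicate 2) to 0.216 (without treated WT replicate 3) with a library left out. The cause was not tested. Replicate numbers were related to the samples in part. The mean correlation of residuals was 0.118 over 18 pairs with the same number, 9 of them over 0.1, and −0.059 over 36 with different numbers. The 6 pairs of replicate 1 had 0.116 to 0.495, and 6 of 12 samples correlated best with their own number, a hint from the data and not from the design. With 3 samples per group small changes can be missed, and cluster medians describe linked genes, not replicates.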
